A study of Saccharomyces cerevisiae with 12 samples.

Results

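The lipid response of the wild strain M25 of Saccharomyces cerevisiae was described from 6 of the 12 arrays of the study, 3 from cultures in lipid-supplemented juice (FSJ) and 3 from cultures in the same juice without lipids (SJ). The 6 arrays were chosen by their titles, not by any measured value. M25 is a wild-type wine strain kept in the culture collection of the University of Sassari. SJ held 200 g/l glucose, 2 g/l ammonium sulphate and tartaric, malic and citric acid at pH 3.3, with yeast nitrogen base and no amino acids, and FSJ was SJ with ergosterol and oleic acid, each at 15 mg/l. Washed cells from a 24 h preculture in SJ were inoculated at 1000000 cells/ml and harvested after 60 h, with 3 biological replicates per medium. The temperature was 28 °C for all 12 samples. The other 6 arrays, from the commercial strain EC1118 in the same media, served for the comparison between strains. M25 is a single strain, so its response holds for that genome only. Aeration, growth and sugar use were not analysed here. A difference between FSJ and SJ therefore holds the lipids and any difference in growth stage at 60 h together, and these cannot be told apart.

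Ergosterol is the main sterol of yeast membranes, and oleic acid is the monounsaturated fatty acid that the desaturase Ole1 makes. Both are synthesised with molecular oxygen, so fermenting yeast with little air depends on lipids in the medium. Low sterol activates the transcription factors Upc2 and Ecm22, which switch on sterol synthesis and uptake, and the PAU, DAN and TIR families of cell wall proteins are expressed by hypoxic cells. Sulfate is the main sulfur source in a juice without amino acids. Its reduction to sulfide, and the synthesis of methionine and cysteine, are controlled by Met4 and its partners, while nitrogen catabolite repression keeps transporters for poor nitrogen sources off when a rich one is at hand.

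Each value is a signal in array units, and a gene was counted as called when limma's Benjamini-Hochberg adjusted p was under 0.05. Means are given ± SD over 3 arrays, and folds with their SE come from the fitted log2 signals. The log2 signals of M25 replicates correlated at 0.970 to 0.986 over probe sets, and those of arrays from different media at 0.945 to 0.970. Over the probe sets that passed the filter the median log2 signal was 7.09 ± 0.017 in SJ and 6.90 ± 0.0091 in FSJ (SD, n = 3), and the groups did not overlap. The brightest 1% of probe sets held 14.6% ± 0.648 of all signal in SJ and 16.6% ± 0.695 in FSJ. The 3' to 5' signal ratio of ACT1, a check of RNA integrity, was 1.52 ± 0.065 in SJ and 1.44 ± 0.207 in FSJ (exact two-sided permutation p = 0.8). For SPT15 it was 2.36 ± 0.097 and 3.55 ± 1.82 (exact permutation p = 0.2), with FSJ replicate 2 at 5.64, and 0.1 is the smallest p that 3 arrays against 3 allow. On 2 arrays many single genes stood apart. In SJ replicate 2, 53 genes had less than 1/2 of the signal of both other replicates, and in FSJ replicate 2 this held for 76, against 1 to 10 on the other M25 arrays. None of the 53 or 76 genes was called, but 1 low array widens the spread of a gene. Genes picked this way were therefore unlikely to be called, and their part in the spread was not tested.

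In M25 512 of 5360 genes were called between the media (9.55%), of which 161 were higher in FSJ (3.0%) and 351 lower (6.55%). At least a 2-fold change was fitted for 43 of the higher and 103 of the lower genes. The median log2 fold change of the higher genes was 0.74 and that of the lower genes -0.82, while the median over all 5360 genes was -0.11. The split between directions moved with the scaling of the arrays. Quantile normalization gave 149 higher (2.78%) and 193 lower (3.60%) with a median over all genes of -0.0099. Centring each array on its median gave 465 higher (8.68%) and 191 lower (3.56%) with a median of 0.075. On all 3 scalings 114 genes were called higher (2.13%) and 165 lower (3.08%). All 161 higher and 350 of the 351 lower genes had arrays that did not overlap between media, against 11.9% of all genes with every FSJ array above SJ and 26.0% with every FSJ array below. For the gene lists the count on all 3 scalings is given where it differs. Leaving out any one M25 array left 2 in its group and lowered both counts. A call lost this way therefore does not show that the left-out array drove it. Without SJ replicate 1, 2 or 3 the higher genes numbered 98, 77 and 71 and the lower genes 152, 175 and 171. Without FSJ replicate 1, 2 or 3 the higher genes numbered 106, 92 and 116 and the lower genes 250, 231 and 277.

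The rise with lipids was led by SUL1, which encodes a high-affinity sulfate permease of the plasma membrane. Its signals were 57.6, 51.4 and 51.8 in SJ and 597, 723 and 706 in FSJ (12.6-fold higher, log2 SE 0.17, limma adjusted p = 2.49e-07). Every FSJ array stood far above every SJ array. YCT1, a cysteine transporter, gave 196, 217 and 192 in SJ and 715, 903 and 881 in FSJ (4.11-fold higher, log2 SE 0.20, limma adjusted p = 0.000141). DAL5, the allantoate permease, gave 532, 554 and 547 in SJ and 2206, 1937 and 1975 in FSJ (3.74-fold higher, log2 SE 0.18, limma adjusted p = 7.59e-05). The groups did not overlap for either gene. A second DAL5 probe set moved the same way (1.99 on the log2 scale, adjusted p = 0.000831) and a dim further one the other way (-1.21, adjusted p = 0.00114), so the DAL5 rise is uncertain. With its probe sets averaged the fitted value was 0.89 in place of 1.90.

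Other leading rises held genes of several kinds. VBA2, a vacuolar transporter of basic amino acids and a chromosomal neighbour of SUL1, rose from 82.2 ± 9.08 to 243 ± 23 (2.96-fold, limma adjusted p = 7.23e-05). GRX8, a glutaredoxin, rose from 55.1 ± 5.17 to 164 ± 4.78 (2.99-fold, limma adjusted p = 0.000942). NIT1, a gene of the nitrilase family, rose from 186 ± 5.67 to 512 ± 38.9 (2.75-fold, limma adjusted p = 0.000563). PDC6, the minor isoform of pyruvate decarboxylase, rose from 118 ± 1.96 to 381 ± 105 (3.13-fold, limma adjusted p = 0.00805), with its 3 SJ arrays between 116.6 and 120.5 and its FSJ arrays spread from 272 to 483. The rises of these 4 genes were called under every alternative tried. The ubiquitin protease gene UBP1 (3.03-fold higher, log2 SE 0.42, limma adjusted p = 0.0355) and CSI2 (3.03-fold higher, log2 SE 0.42, limma adjusted p = 0.0375) were less uniform. Their SJ signals ran from 62.1 to 218 and from 28.3 to 51.6, and the call of UBP1 was lost without SJ replicate 2 or 3 or FSJ replicate 1 or 2 and that of CSI2 without any one M25 array (adjusted p up to 0.126 and 0.135). The tRNA gene SUF1 read below the background in every SJ culture, at 9.7, 5.5 and 14.5 in SJ and 30.3, 31.7 and 20.2 in FSJ, which allows a rise of at least 1.38-fold (adjusted p = 0.0397). It was among 13 of 86 tRNA genes called higher, and none was called lower, against 3.0% higher and 6.55% lower over all genes. The median over the 86 was 0.40 on the log2 scale, against -0.11 over all genes. Whether the tRNA count held on other scalings or without single arrays was not tested. Raising signals to the background removed the SUF1 call, as did leaving out SJ replicate 1 or 2 or FSJ replicate 1 or 2 (adjusted p up to 0.199 over its alternatives).

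**Figure D1:**
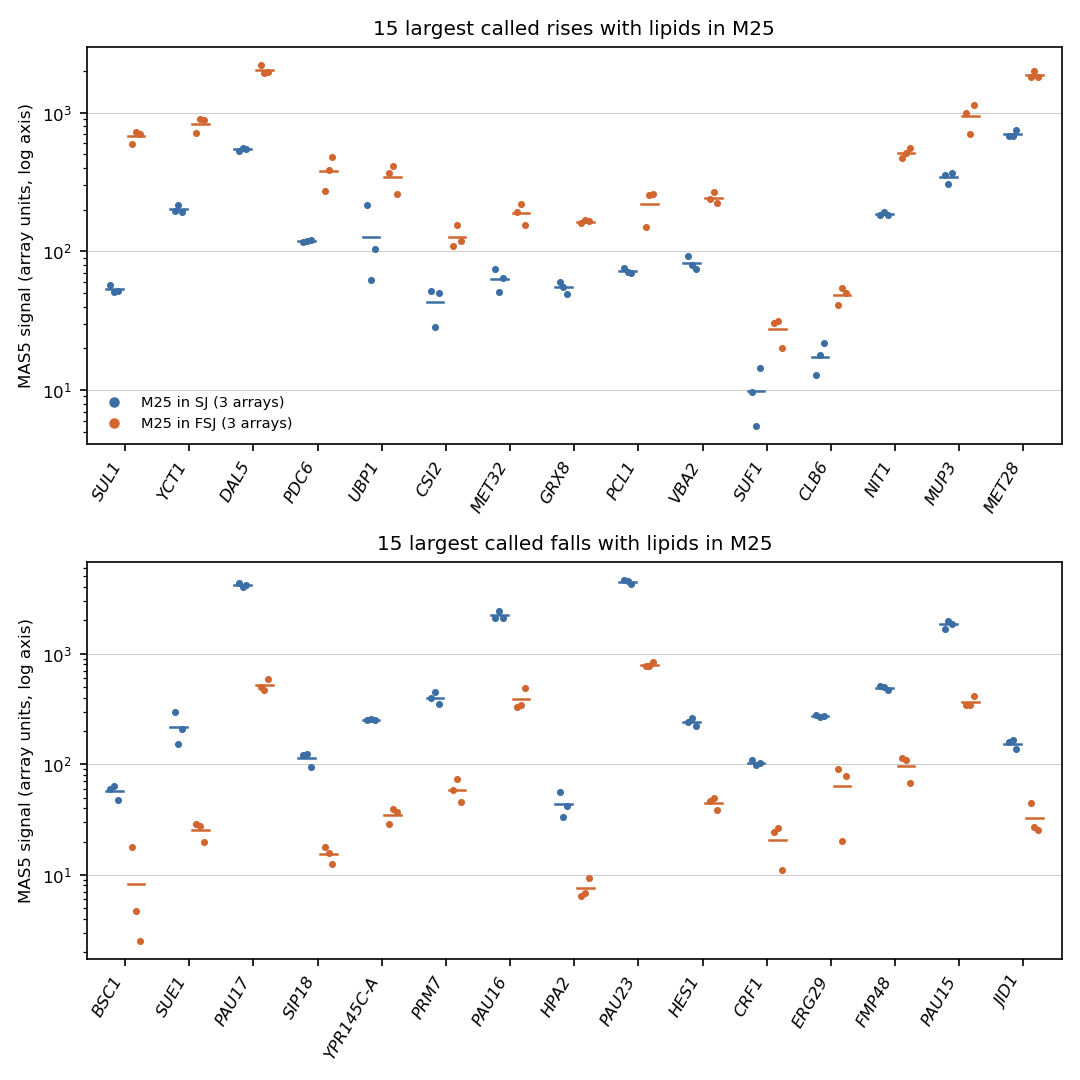
MAS5 signal on a log axis of the 15 largest called rises (upper panel) and 15 largest called falls (lower panel) in M25, with 1 point per array and a line at the mean of 3. The 30 genes were picked among called genes whose SJ and FSJ arrays do not overlap. SUL1 rises from 53.6 to 675 while PAU17 falls from 4192 to 520.

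The falls were led by genes of several kinds. SUE1, a mitochondrial protein needed to degrade cytochrome c, had signals of 297, 153 and 206 in SJ and 28.9, 27.7 and 19.9 in FSJ (8.38-fold lower, log2 SE 0.44, limma adjusted p = 0.00154). The FSJ values lay close to the background of 16.6 to 21.7, and no SJ array was under 153. YPR145C-A, an open reading frame of unknown function, fell from 253 ± 4.78 to 35.1 ± 5.32 (7.28-fold, limma adjusted p = 1.98e-05). FMP48, a mitochondrial kinase-like protein, fell from 492 ± 22.6 to 97.1 ± 25.2 (5.19-fold, limma adjusted p = 1.98e-05). JID1, a mitochondrial J-domain protein, fell from 153 ± 14.7 to 32.6 ± 10.7 (4.84-fold, limma adjusted p = 0.000229), and CRF1, a corepressor of ribosomal protein genes, fell from 103 ± 5.47 to 20.6 ± 8.34 (5.35-fold, limma adjusted p = 0.0012). Each of these 5 genes was called under every alternative. The CRF1 signals in FSJ, 24.2, 26.6 and 11.1, lay around the background, and the folds of CRF1 and SUE1 depended on the offset. With log2(signal + 16) the fitted values were -1.73 in place of -2.42 for CRF1 and -2.46 in place of -3.07 for SUE1.

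For several falls the FSJ signal gave only a bound. SIP18, a hydrophilin of dehydrated cells, read 121, 123 and 94.9 in SJ and 17.8, 15.9 and 12.4 in FSJ, under the background on all 3 FSJ arrays, a fall of at least 5.91-fold (adjusted p = 0.00336). HPA2, a histone acetyltransferase, read 56.4, 33.6 and 42.1 in SJ and 6.4, 6.8 and 9.4 in FSJ, a fall of at least 2.27-fold (adjusted p = 0.00382). BSC1 read 60.3, 63.2 and 47.2 in SJ and 17.7, 4.7 and 2.5 in FSJ, a fall of at least 2.97-fold (adjusted p = 0.00423). Its neighbour PRM7, a pheromone-regulated membrane protein, read 399, 446 and 347 in SJ and 58.2, 73.7 and 45.2 in FSJ (6.83-fold lower, log2 SE 0.19, limma adjusted p = 5.14e-06). All of the FSJ arrays of PRM7 stood over the background and a second, dimmer PRM7 probe set fell too (-2.16 on the log2 scale, adjusted p = 0.000165).

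The 49 gene lists are summarised by the share of their measured members that was called, against 3.0% higher and 6.55% lower over all genes. The lists with the largest shares called higher were sulfate uptake and reduction (70%) and the sulfur regulators and permeases (46.2%). The lists with the largest shares called lower were the PAU family (100%), the mevalonate pathway (66.7%) and the sterol steps (44.4%). Histones, with 4 measured members, and other short lists rest on single genes.

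**Figure D2:**
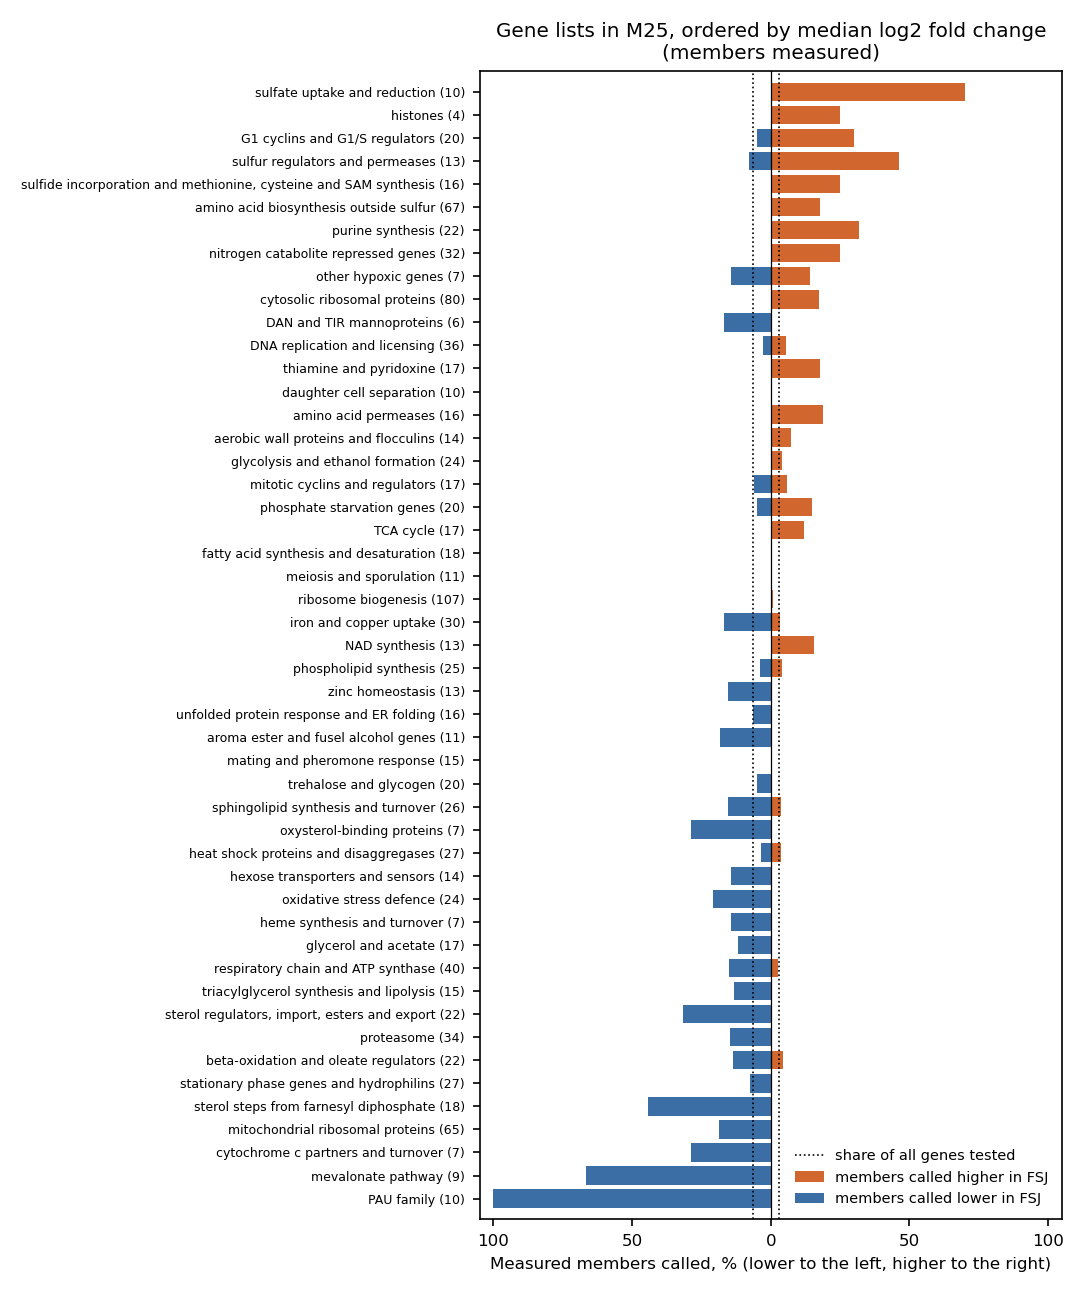
Share of the measured members of each gene list called in M25, in percent, with lower genes to the left and higher genes to the right, and the number of measured members in brackets. Dotted lines mark the shares over all genes tested, 6.55% lower and 3.0% higher, and the longest bars are the PAU family at 100% lower and sulfate uptake and reduction at 70% higher.

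Both sulfate permeases and the first enzymes of sulfate assimilation rose. Of the 10 measured genes of sulfate uptake and reduction, 7 were called higher, none lower, and all 10 had a positive fitted value, and the median was 0.89 on the log2 scale against -0.11 over all genes. On all 3 scalings 5 were called. SUL2, the other sulfate permease, had signals of 2145, 2014 and 2097 in SJ and 3748, 3671 and 3905 in FSJ (1.81-fold higher, log2 SE 0.17, limma adjusted p = 0.0111). MET3, the ATP sulfurylase that activates sulfate, had 1921, 1647 and 1670 in SJ and 3179, 3127 and 3265 in FSJ (1.83-fold higher, log2 SE 0.18, limma adjusted p = 0.0136). MET14, the kinase that follows it, rose from 1573 ± 184 to 2948 ± 289.7 (1.88-fold, limma adjusted p = 0.0208). In each of these genes every FSJ array was above every SJ array.

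Of the genes that follow, 3 rose and 3 did not pass. MET22, the phosphatase that removes the by-product of sulfate reduction, rose from 1312 ± 43.4 to 2167 ± 79.1 (1.65-fold, limma adjusted p = 0.00604). MET5, a subunit of sulfite reductase, rose from 3113 ± 312 to 4505 ± 20.2 (1.45-fold, limma adjusted p = 0.0208). MET1, which makes the siroheme cofactor of that enzyme, rose from 1227 ± 232 to 2823 ± 320.2 (2.32-fold, limma adjusted p = 0.00517). MET10, the other sulfite reductase subunit, had 645, 1718 and 1752 in SJ and 2613, 2795 and 2617 in FSJ, with SJ replicate 1 far below the other SJ arrays, and was not called (1.10 on the log2 scale, limma adjusted p = 0.0834). MET16, which reduces activated sulfate to sulfite, had 1127 ± 111 in SJ and 2159.9 ± 184 in FSJ and was not called either (adjusted p = 0.088), and MET8, which also serves siroheme, overlapped between media (177 ± 31.5 in SJ and 183 ± 57.8 in FSJ, adjusted p = 0.975). SUL1, SUL2, MET1 and MET22 were called under every alternative. Without SJ replicate 2 the count of the list fell from 7 to 4, and the calls of MET3, MET14 and MET5 were lost there. That of MET3 was also lost without SJ replicate 3, that of MET14 without SJ replicate 3 or FSJ replicate 2 or 3, and that of MET5 without SJ replicate 1 or any FSJ array (adjusted p up to 0.0551, 0.0837 and 0.083 over all alternatives).

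Of 16 measured genes that fix sulfide or make methionine, cysteine and S-adenosylmethionine, 4 were called higher and none lower, and the median was 0.36 on the log2 scale, and 3 were called on all 3 scalings. STR3, the cystathionine beta-lyase of methionine synthesis, had 1106, 1032 and 1027 in SJ and 2925, 2780.3 and 2601 in FSJ (2.62-fold higher, log2 SE 0.19, limma adjusted p = 0.00142). MET2, which acetylates homoserine, the carbon acceptor of sulfide, had 706, 663 and 664 in SJ and 1442, 1334 and 1458 in FSJ (2.08-fold higher, log2 SE 0.22, limma adjusted p = 0.0119). MET17, which joins sulfide to that acceptor, rose from 4497 ± 363 to 5856 ± 479 (1.3-fold, limma adjusted p = 0.0271), and SAM4, a homocysteine methyltransferase, rose from 343 ± 20.6 to 558 ± 39.4 (1.62-fold, limma adjusted p = 0.0271). The highest SJ array of each stood below its lowest FSJ array. The calls of MET17 and SAM4 were lost without SJ replicate 2, SJ replicate 3 or FSJ replicate 3, each of which left 2 of the 4. That of MET17 was also lost without FSJ replicate 1 and that of SAM4 without SJ replicate 1 or FSJ replicate 2. Over all alternatives the adjusted p ran up to 0.218 for MET17, with quantile normalization, and 0.0966 for SAM4. Median centring gave 9 higher members and a fit to the M25 arrays alone 7.

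The 12 other genes of this group did not pass the test, which pools the spread of both strains. CYS3, which makes cysteine from cystathionine, read 2672 ± 179 in SJ and 4086 ± 248 in FSJ (limma adjusted p = 0.191), and CYS4, which makes cystathionine, read 2087 ± 38.2 in SJ and 2585 ± 193 in FSJ (adjusted p = 0.131). MHT1, a partner of SAM4, read 94.2 ± 12.7 in SJ and 247 ± 49 in FSJ (adjusted p = 0.0675). STR2 read 317 ± 39.7 in SJ and 369 ± 70.2 in FSJ (adjusted p = 0.668). MET6, the methionine synthase, read 2745 ± 572 in SJ and 3439 ± 364 in FSJ (adjusted p = 0.186), and its folate suppliers MET13 and MET12 had adjusted p = 0.0602 and 0.427. The S-adenosylmethionine synthetases SAM1 (adjusted p = 0.252) and SAM2 (adjusted p = 0.997) overlapped between media, and SAM2 had a low array in each medium, 871 in SJ replicate 2 and 946 in FSJ. SAH1 and the glutathione enzymes GSH1 and GSH2 had adjusted p of 0.907, 0.116 and 0.852.

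Of 13 measured sulfur regulators and permeases, 6 were called higher and 1 lower, the same counts as on all 3 scalings, and the median was 0.37 on the log2 scale. MET28, a partner of Met4 on DNA, had 681, 679.6 and 751 in SJ and 1795, 1989.5 and 1817 in FSJ (2.65-fold higher, log2 SE 0.29, limma adjusted p = 0.0121). MET32, a zinc-finger protein that recruits Met4, had 74.4, 51.3 and 64 in SJ and 192, 220.4 and 154 in FSJ (2.99-fold higher, log2 SE 0.21, limma adjusted p = 0.00125). MET30, the F-box protein that restrains Met4, rose from 319 ± 2.14 to 583 ± 32.7 (1.82-fold, limma adjusted p = 0.0101). Their SJ and FSJ arrays did not overlap. MET4 itself had 99.1 ± 6.07 in SJ and 119.5 ± 34.1 in FSJ and was not called (adjusted p = 0.639), and neither were CBF1 (adjusted p = 0.779) and MET31 (adjusted p = 0.26).

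Among the permeases of this list calls went both ways. MUP3, a low-affinity methionine permease, had 353, 305 and 368 in SJ and 996, 702 and 1132 in FSJ (2.71-fold higher, log2 SE 0.30, limma adjusted p = 0.0127), and MMP1, which imports S-methylmethionine, had 206, 183 and 165 in SJ and 463, 463 and 533 in FSJ (2.64-fold higher, log2 SE 0.37, limma adjusted p = 0.0351). MUP1, the high-affinity methionine permease, had 98.1, 148 and 119 in SJ and 51.1, 39 and 42.2 in FSJ (2.74-fold lower, log2 SE 0.22, limma adjusted p = 0.00253), and its FSJ arrays lay wholly below its SJ arrays. SAM3, the S-adenosylmethionine permease, read 3889 ± 143 in SJ and 4667 ± 479 in FSJ (adjusted p = 0.25). SOA1 and JLP1, which serve other sulfur sources, were not called (adjusted p = 0.243 and 0.631). The MUP3 call was lost without SJ replicate 2 (adjusted p = 0.0524), and that of MMP1 without any single M25 array (adjusted p up to 0.11).

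**Figure D3:**
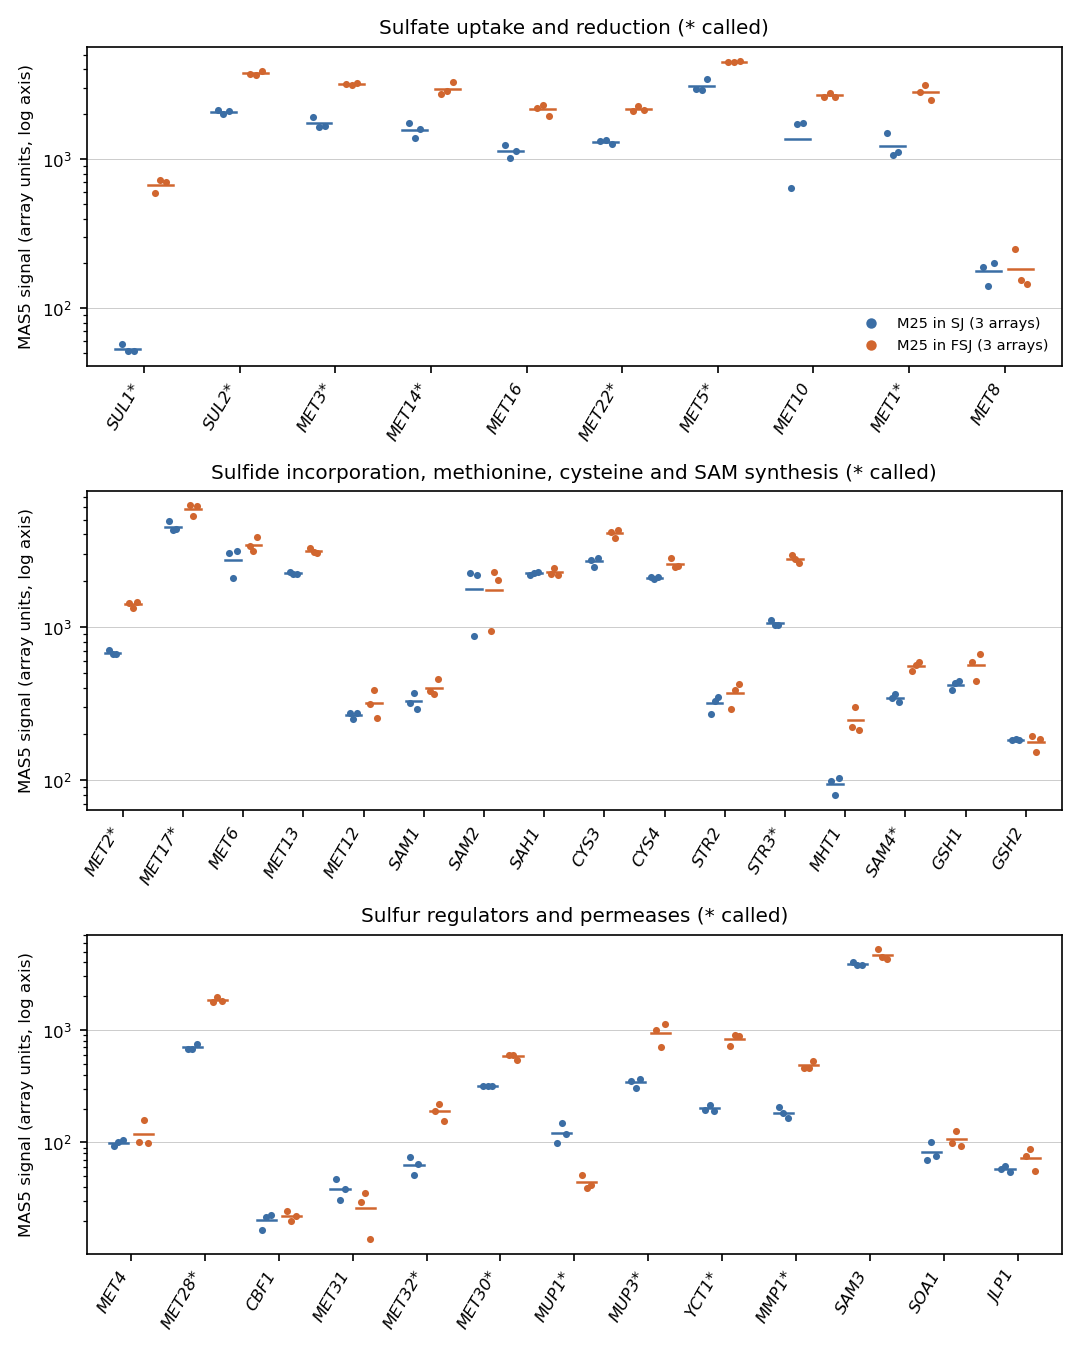
MAS5 signal on a log axis for the 39 genes of sulfate uptake and reduction, of sulfide incorporation with methionine, cysteine and S-adenosylmethionine synthesis, and of sulfur regulation and import, with 1 point per M25 array, a line at the mean of 3 and an asterisk on called genes. SUL1 rises from 53.6 to 675, MUP1 falls from 122 to 44.1, and single low arrays of MET10 and SAM2 stand out.

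Some genes under nitrogen catabolite repression rose. Of 32 measured, 8 were called higher and none lower, 7 of them on all 3 scalings, and the median was 0.28 on the log2 scale. GAP1, the general amino acid permease, had 926, 809 and 655 in SJ and 1603, 1917 and 1332 in FSJ (2.03-fold higher, log2 SE 0.17, limma adjusted p = 0.00365). DUR3, the urea transporter, had 83.2, 109 and 71.2 in SJ and 234, 227 and 182 in FSJ (2.46-fold higher, log2 SE 0.22, limma adjusted p = 0.00423), and MEP2, an ammonium permease, rose from 2262 ± 169 to 3282 ± 294 (1.45-fold, limma adjusted p = 0.00884). All were called under every alternative, as was DAL5. In EC1118, 7 members were called higher and 1 lower. The count in M25 was 5 without SJ replicate 1, SJ replicate 3 or FSJ replicate 2.

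Amino acid and peptide permeases of a separate list included 3 called higher of 16 and none lower. DIP5, which imports glutamate and aspartate, had 1093, 954 and 894 in SJ and 3036, 1487 and 2335 in FSJ (2.24-fold higher, log2 SE 0.22, limma adjusted p = 0.00875). PTR2, the peptide transporter, had 1244, 1101 and 1205 in SJ and 3129.8, 2659.9 and 2223 in FSJ (2.24-fold higher, log2 SE 0.16, limma adjusted p = 0.00151). CAN1, the arginine permease, rose from 828 ± 34.7 to 1426 ± 209 (1.71-fold, limma adjusted p = 0.017), a call lost without SJ replicate 1, SJ replicate 2 or FSJ replicate 2 (adjusted p up to 0.0649). The FSJ arrays of DIP5 were spread widely and still stood above all SJ arrays.

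Some genes for the synthesis of amino acids, purines and vitamins rose, by smaller factors. Of 67 measured amino acid synthesis genes outside the sulfur route, 12 were called higher and none lower, and 57 had a positive value, and the median was 0.34 on the log2 scale. This count depended on the scaling and on the arrays included. It was 35 with median centring, 5 with quantile normalization and 3 on all scalings. Without EC1118 in FSJ replicate 3, which enters the shared spread, it was 25. Without SJ replicate 3 it was 2, without SJ replicate 2 it was 5 and without FSJ replicate 2 it was 7. HIS3, of histidine synthesis, rose from 728 ± 14.1 to 1214 ± 92.5 (1.67-fold, limma adjusted p = 0.00604), and ARO2, the chorismate synthase, rose from 3079 ± 181 to 4239 ± 112 (1.38-fold, limma adjusted p = 0.00717), both under every alternative.

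Of 22 purine genes 7 were called higher and none lower, 6 on all 3 scalings, and the median was 0.30. ADE17 had 1670.4, 1738 and 1681 in SJ and 2257, 2265 and 2345 in FSJ (1.35-fold higher, log2 SE 0.08, limma adjusted p = 0.00568), and ADE8 had 1077, 1035 and 889 in SJ and 1646, 1880.2 and 1585 in FSJ (1.7-fold higher, log2 SE 0.14, limma adjusted p = 0.00764), both enzymes of the route to inosine monophosphate. SHM2, the cytosolic serine hydroxymethyltransferase that feeds this route with folate units, rose from 2373 ± 179.9 to 3262 ± 179 (1.38-fold, limma adjusted p = 0.00736). None of these 3 genes had overlapping groups. Of 17 measured thiamine and pyridoxine genes 3 were called higher, among them SNZ1, of pyridoxine synthesis, which rose from 1254 ± 54.7 to 2131 ± 153 (1.7-fold, limma adjusted p = 0.00146), and its neighbour SNO1, which rose from 910.0 ± 144 to 1346 ± 33.4 (1.49-fold, limma adjusted p = 0.0201). THI73, a transporter gene of the thiamine regulon, rose from 1270.1 ± 56.7 to 1961 ± 242 (1.54-fold, limma adjusted p = 0.00825). Of 13 genes of NAD synthesis BNA3 rose from 270.2 ± 6.67 to 497 ± 21.9 (1.84-fold, limma adjusted p = 0.0119) and the nicotinic acid permease TNA1 rose from 3513 ± 106 to 4845 ± 459 (1.38-fold, limma adjusted p = 0.0119). The calls of SNO1 and TNA1 were lost without SJ replicate 3, and that of SNO1 also without SJ replicate 2 or FSJ replicate 1 or 3 (adjusted p up to 0.0826 and 0.0607 over all alternatives).

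Of 20 measured genes of the G1 phase of the cell cycle, 6 were called higher and 1 lower, and the median was 0.43 on the log2 scale. The G1 cyclin gene CLN1 had 72.4, 78.7 and 72.9 in SJ and 128, 219.5 and 180 in FSJ (2.3-fold higher, log2 SE 0.27, limma adjusted p = 0.018), and PCL1, a cyclin of the Pho85 kinase, had 75.6, 71.6 and 69.8 in SJ and 151, 253 and 259 in FSJ (2.97-fold higher, log2 SE 0.39, limma adjusted p = 0.0286). YOX1 and YHP1, homeodomain repressors of the M/G1 genes, rose from 184 ± 20.0 to 430.2 ± 95.8 (2.31-fold, limma adjusted p = 0.0184) and from 48.2 ± 1.81 to 100 ± 14.2 (2.06-fold, limma adjusted p = 0.00974). Groups did not overlap for any of these. The S-phase cyclin CLB6 read 12.8, 17.8 and 21.8 in SJ and 40.9, 54.7 and 50 in FSJ, over the background on 1 of 3 SJ arrays (adjusted p = 0.026), while CLB5 fell from 398 ± 22.1 to 289 ± 34.5 (1.38-fold, limma adjusted p = 0.0437). Of the 6, YHP1 kept its call under every alternative. Without SJ replicate 1 or 2 or FSJ replicate 2 or 3 the count of higher members was 1, and without SJ replicate 3 it was 2, with adjusted p up to 0.0684 for CLN1, 0.0923 for PCL1 and 0.0698 for YOX1. The CLB5 call was lost under 13 of 22 alternatives, among them both other scalings and leaving out any one SJ array or FSJ replicate 1 or 2 (adjusted p up to 0.181).

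Of the mitotic genes 5.88% were called higher and 5.88% lower, and of the replication genes 5.56% and 2.78%. Both lists were near the shares over all genes, 3.0% higher and 6.55% lower. CDC20, the activator of the anaphase-promoting complex, had 114, 84.7 and 114 in SJ and 233, 259 and 263 in FSJ (2.44-fold higher, log2 SE 0.17, limma adjusted p = 0.00115) and was called under every alternative. It was the one higher gene of 17 mitotic genes, and NDD1, an activator of mitotic genes, was lower (158 ± 11.6 in SJ and 113 ± 15.5 in FSJ, adjusted p = 0.0441). Of 36 replication genes RNR1, the large subunit of ribonucleotide reductase, and the helicase subunit MCM7 were higher (adjusted p = 0.0492 and 0.0433), and RFC1 lower (adjusted p = 0.0159). Of 4 measured histone genes HTB2 rose from 925 ± 69.7 to 1686 ± 274 (1.81-fold, limma adjusted p = 0.023). None of the 10 genes of daughter cell separation was called. All of these calls other than that of CDC20 were lost without SJ replicate 1 and without SJ replicate 3. Over all alternatives their adjusted p ran up to 0.208, for NDD1 with quantile normalization.

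Cytosolic and mitochondrial ribosomal protein genes had medians of opposite sign. Of 137 listed cytosolic ones 80 were measured, of which 14 were called higher and none lower. A positive value was fitted for 76, and the median was 0.27 on the log2 scale. Of the 80, 30 rest on probe sets with the suffix for shared probes, so near-identical copies among them may not be separate measures. RPS0A rose from 2797 ± 55.3 to 3634 ± 122 (1.3-fold, limma adjusted p = 0.00604) and RPL22A from 4699.8 ± 263 to 6271 ± 375 (1.33-fold, limma adjusted p = 0.00523). Of 65 mitochondrial ones 12 were called lower and none higher, and 2 had a positive value, and the median was -0.40. MRPL13 fell from 290.4 ± 20.3 to 203 ± 13.9 (1.43-fold, limma adjusted p = 0.018) and RSM28 from 221 ± 36 to 123 ± 30.9 (1.82-fold, limma adjusted p = 0.0168). Neither count held across scalings. With median centring 61 cytosolic genes were called higher and 2 mitochondrial genes lower, with quantile normalization 2 and 1, and on all scalings 2 and 1. Without any one of the M25 arrays other than FSJ replicate 3 the cytosolic count was 2 to 5, lowest without SJ replicate 2. Without any one M25 array the mitochondrial count was 0 to 5, at 0 without SJ replicate 1. The brightest 25% of all genes held 107 of the 161 higher genes and had a median of 0.032, against -0.17 in the dimmest 25%. Of 107 ribosome biogenesis genes RPF2 was called higher (2.13-fold, adjusted p = 0.0142) and none lower, and that call was lost without SJ replicate 2 or FSJ replicate 2 (adjusted p up to 0.0591).

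Of the 27 genes of sterol synthesis 14 were called lower, in the mevalonate part and in later steps, and the others did not pass. All 9 genes of the mevalonate pathway, from acetyl-CoA to farnesyl diphosphate, had a negative value, 6 were called lower and none higher, and the median was -0.59 on the log2 scale. On all 3 scalings 4 were called lower, and with median centring the values of ERG10 and HMG2 were positive. HMG1, one of the isoenzymes of HMG-CoA reductase, the main control step, had 1462, 1037 and 1000.3 in SJ and 417, 432 and 384 in FSJ (2.8-fold lower, log2 SE 0.20, limma adjusted p = 0.00125). Its other isoenzyme, HMG2, had 2663, 2603 and 2567 in SJ and 2520.3, 2349 and 2391 in FSJ and was not called (adjusted p = 0.625). ERG8, the phosphomevalonate kinase, had 881, 859 and 808 in SJ and 468, 402 and 398 in FSJ (2.02-fold lower, log2 SE 0.11, limma adjusted p = 0.00024). The HMG1 and ERG8 groups were far apart, and those of HMG2 were close but did not overlap.

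MVD1, the mevalonate diphosphate decarboxylase, fell from 1886 ± 208 to 1138 ± 227 (1.67-fold, limma adjusted p = 0.00764). ERG12, the mevalonate kinase, fell from 721 ± 31.1 to 479 ± 39.3 (1.51-fold, limma adjusted p = 0.00557), ERG13, which makes HMG-CoA, from 2387 ± 124 to 1749.8 ± 164 (1.37-fold, limma adjusted p = 0.0321), and IDI1, the isopentenyl diphosphate isomerase, from 564 ± 42.1 to 362 ± 66.3 (1.57-fold, limma adjusted p = 0.0271). ERG10, at the entry of the pathway, had 4407, 2726 and 3482 in SJ and 3506, 3679 and 2439 in FSJ, with overlapping groups (adjusted p = 0.79), and ERG20, at its end, had 1233 ± 85.6 in SJ and 994 ± 74.3 in FSJ (adjusted p = 0.16). HMG1, ERG8 and MVD1 were called under every alternative. The calls of ERG13 and IDI1 were lost without any one of the SJ arrays or FSJ replicate 3. That of ERG13 was also lost without FSJ replicate 2. Over all alternatives the adjusted p ran up to 0.193 for ERG13, with median centring, and 0.101 for IDI1. The ERG12 call was lost on averaging its 4 probe sets (adjusted p = 0.285), among them a dim one at 0.50 on the log2 scale.

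From farnesyl diphosphate to ergosterol, 8 of 18 genes were called lower and none higher, and 5 were called on all 3 scalings. As deposited all fitted values were again negative (median -0.37), but those of ERG1, ERG2, ERG4 and ERG26 were positive with median centring. ERG29, a protein of the methyl sterol oxidase step, had the largest fall, with 277, 270.1 and 276 in SJ and 91.4, 20.4 and 77.8 in FSJ (5.22-fold lower, log2 SE 0.45, limma adjusted p = 0.00825). Its SJ arrays were close together, and its FSJ arrays spread widely below them. Without FSJ replicate 2, its lowest array, the fitted value was -1.70 in place of -2.38 on the log2 scale. ERG6, the sterol methyltransferase of the pathway, had 2602, 2473 and 2658 in SJ and 1572, 1651 and 1409 in FSJ (1.67-fold lower, log2 SE 0.12, limma adjusted p = 0.00355). ERG5, the sterol desaturase of cytochrome P450 type, had 1968, 2086 and 1712 in SJ and 1177, 1149 and 674 in FSJ (1.98-fold lower, log2 SE 0.18, limma adjusted p = 0.00764). ERG24, the sterol reductase, fell from 432 ± 57.7 to 236 ± 6.13 (1.82-fold, limma adjusted p = 0.00276), and CYB5, cytochrome b5, an electron donor to these enzymes, fell from 2288 ± 70.9 to 1262 ± 220.3 (1.83-fold, limma adjusted p = 0.00227). All 5 were called under every alternative.

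ERG9, squalene synthase, fell from 1958 ± 85.4 to 1573 ± 114 (1.25-fold, limma adjusted p = 0.0419), ERG3, the other sterol desaturase, from 4144 ± 178 to 3094 ± 455 (1.35-fold, limma adjusted p = 0.0396), and DAP1, a heme protein that assists Erg11, from 911 ± 80.6 to 569 ± 155 (1.64-fold, limma adjusted p = 0.023). These 3 calls were lost without any one of the SJ arrays or FSJ replicate 2 or 3, which left 5. Over all alternatives the adjusted p ran up to 0.382 for ERG9 and 0.216 for ERG3, both with median centring. For DAP1 it ran up to 0.0885. The first oxygen-requiring enzymes of the pathway did not pass. ERG1, squalene epoxidase, had 2166 ± 37.5 in SJ and 1955 ± 187 in FSJ (adjusted p = 0.426), and ERG11, lanosterol demethylase, had 3941 ± 231 in SJ and 3126 ± 300.4 in FSJ (adjusted p = 0.0631). ERG25, the methyl sterol oxidase, had 4392 ± 334 in SJ and 3456 ± 826 in FSJ (adjusted p = 0.154). ERG7 (adjusted p = 0.289), ERG26 (0.241), ERG27 (0.13), ERG28 (0.112), ERG2 (0.328), ERG4 (0.967) and NCP1 (0.0715) were not called either. Quantile normalization called 12 of the 18 lower, so these misses do not show that their levels were equal.

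Some regulators of sterol genes and of hypoxia fell too. Of 22 genes of sterol regulation, import, esterification and export 7 were called lower and none higher, all 7 on every scaling. UPC2, the sterol-sensing activator, had 648, 663 and 674 in SJ and 183, 292 and 233 in FSJ (2.85-fold lower, log2 SE 0.18, limma adjusted p = 0.000497). MOT3, a repressor of hypoxic and sterol genes, had 123, 125 and 126 in SJ and 45.9, 42.2 and 20.1 in FSJ (3.68-fold lower, log2 SE 0.27, limma adjusted p = 0.00164). ROX1, the heme-dependent repressor of hypoxic genes, singled out after its values were seen, had 454, 239 and 414 in SJ and 140.1, 89.8 and 47 in FSJ (4.23-fold lower, log2 SE 0.33, limma adjusted p = 0.00336). The activator and both repressors were lower together, with no overlap of arrays.

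Genes of sterol handling fell in part. AUS1, a sterol importer of the ABC family, had 915, 1199.8 and 969 in SJ and 387, 497 and 585 in FSJ (2.12-fold lower, log2 SE 0.17, limma adjusted p = 0.00309). ARE2, the main sterol acyltransferase, had 266, 293 and 273 in SJ and 116, 110 and 54.8 in FSJ (3.12-fold lower, log2 SE 0.23, limma adjusted p = 0.00162), and YEH1, a steryl ester hydrolase, fell from 1582 ± 157 to 759.5 ± 91.4 (2.09-fold, limma adjusted p = 0.000915). HES1, an oxysterol-binding protein, had 241, 263 and 220.3 in SJ and 46.5, 49.8 and 38.5 in FSJ (5.39-fold lower, log2 SE 0.17, limma adjusted p = 7.14e-06), and OSH6, of the same family, fell from 366 ± 40.8 to 198 ± 32.9 (1.86-fold, limma adjusted p = 0.00862), 2 of 7 measured. The groups of these genes did not overlap. Averaging the 6 AUS1 probe sets removed the call (adjusted p = 0.342). Of those, 3 others were called lower and a dim one gave 0.65 on the log2 scale.

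The seripauperins, a large subtelomeric family of small cell wall proteins, were lower throughout. Of 24 listed PAU genes 10 were measured, and all 10 were called lower on each of 3 scalings and without any single array, and the median was -2.20 on the log2 scale. PAU17 had 4384, 4037 and 4156 in SJ and 502, 469 and 589.9 in FSJ (8.09-fold lower, log2 SE 0.13, limma adjusted p = 1.5e-07). PAU23 had 4624, 4538 and 4239 in SJ and 768, 767 and 837 in FSJ (5.65-fold lower, log2 SE 0.11, limma adjusted p = 1.5e-07). In both, every SJ array stood several times above every FSJ array. PAU16 fell 5.84-fold, PAU15 5.03-fold, PAU3 4.82-fold, PAU19 4.38-fold, PAU13 2.96-fold, PAU10 2.3-fold, PAU7 2.23-fold and PAU4 1.63-fold, with adjusted p between 3.05e-06 and 0.00423. All 10 probe sets carry the suffix for shared probes. PAU genes are near-identical, so the values belong to the family and single members cannot be told apart.

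The other hypoxic wall proteins gave no such uniform fall. Of 6 DAN and TIR genes, DAN4 was called lower (755 ± 44.1 in SJ and 451 ± 37.4 in FSJ, adjusted p = 0.0204) and 5 had a positive value. DAN1 had 5706, 5435 and 5259 in SJ and 5949, 5905 and 5249 in FSJ (adjusted p = 0.659) and TIR1 had 5835, 5020.4 and 5162 in SJ and 7698, 6106 and 6290 in FSJ (adjusted p = 0.181). TIR2, TIR3 and TIR4, named after their values were seen, had adjusted p of 0.131, 0.118 and 0.348. The median of the list was 0.24 as deposited and 0.43 with median centring, which called 3 members higher, but -0.0056 with quantile normalization, so its sign depended on the scaling. The DAN4 call was lost with quantile normalization and without any one of the SJ arrays or FSJ replicate 2 or 3 (adjusted p up to 0.0728).

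Among 7 other genes of hypoxia, ANB1, the hypoxic isoform of a translation factor, rose from 5702 ± 281 to 6924 ± 403 (1.21-fold, limma adjusted p = 0.0347) and CYC7, the hypoxic isoform of cytochrome c, fell from 191 ± 55.5 to 63.7 ± 25.5 (3.06-fold, limma adjusted p = 0.0354), and neither call held with quantile normalization or without any one of the SJ arrays (adjusted p up to 0.684 and 0.122). HEM13, coproporphyrinogen oxidase, had 2238, 649 and 1931 in SJ and 1949.8, 1849.5 and 2047 in FSJ (adjusted p = 0.51). Its low SJ replicate 2 set the sign, as the fitted value was 0.47 on the log2 scale with that array and -0.094 without it.

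**Figure D4:**
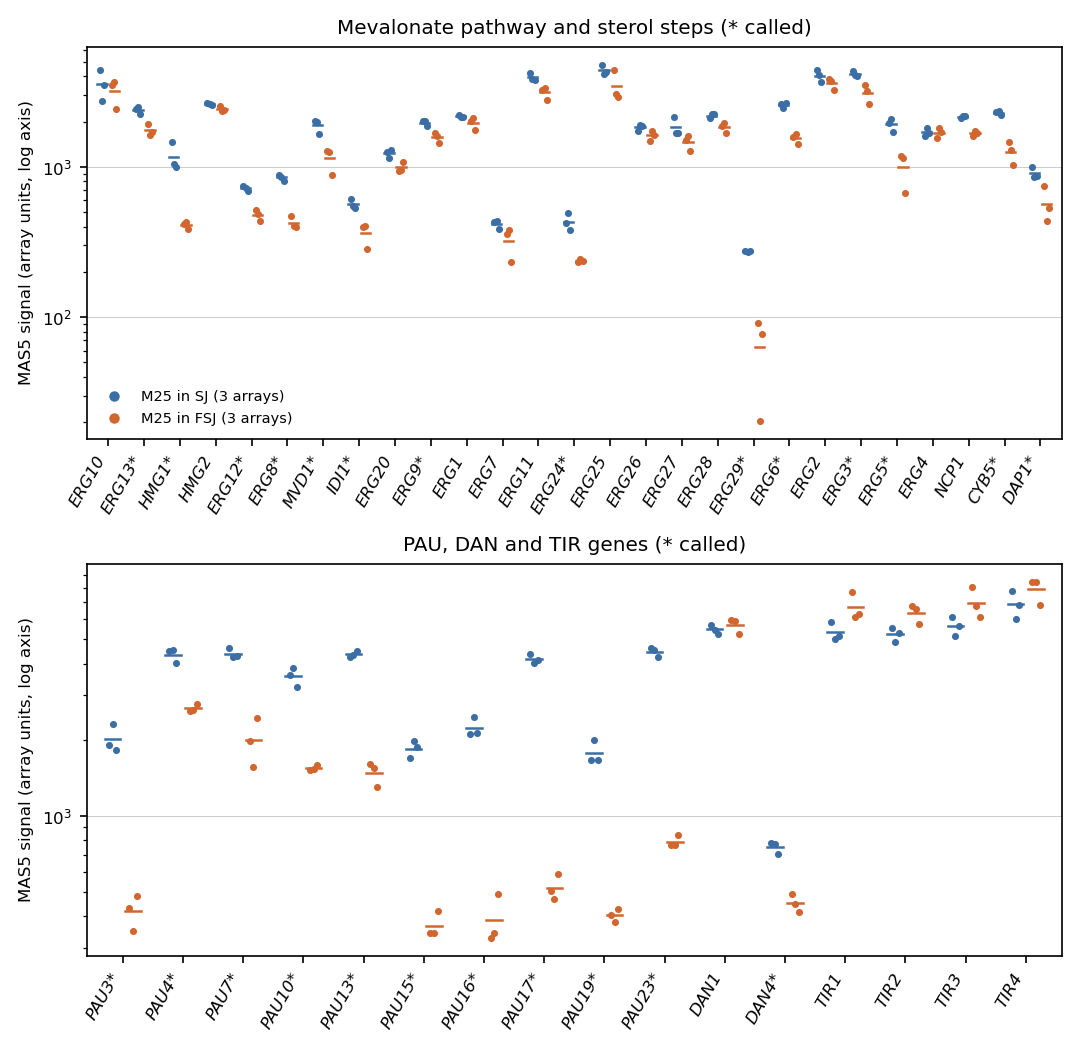
MAS5 signal on a log axis for 27 genes of the mevalonate pathway and the sterol steps, in pathway order (upper panel), and for 10 PAU and 6 DAN and TIR genes (lower panel), with 1 point per M25 array, a line at the mean of 3 and an asterisk on called genes. All PAU genes and HMG1 drop clear of their SJ arrays, while HMG2, DAN1 and the TIR genes stay near them.

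None of the 18 genes of fatty acid synthesis and desaturation was called in either direction. For a list this short that is near the shares over all genes, 3.0% higher and 6.55% lower. OLE1, the oleate-forming desaturase, had 3596, 3993 and 4313 in SJ and 4797, 4660.1 and 4394 in FSJ (0.22 on the log2 scale, limma adjusted p = 0.171). ACC1, acetyl-CoA carboxylase, had 6171, 5494 and 5861 in SJ and 6596, 6222 and 5827 in FSJ (adjusted p = 0.606). FAS1, a fatty acid synthase subunit, had 4529 ± 574 in SJ and 3908 ± 980.3 in FSJ (adjusted p = 0.418), but 1 of its 7 dimmer probe sets was called lower (-0.60 on the log2 scale, adjusted p = 0.0321). The rest of the 7 ran from -0.97 (adjusted p = 0.0728) to 0.034 (adjusted p = 0.935). Median centring called 3 of the 18 higher, and a fit to the M25 arrays alone called 1 lower. INO1, inositol phosphate synthase, the reporter gene of phospholipid regulation, had 3322 ± 30.2 in SJ and 3235 ± 68.6 in FSJ (adjusted p = 0.823) and a fitted value of -0.04.

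Other lipid lists gave scattered calls. Of 26 sphingolipid genes 4 were lower and 1 higher, the same count on all 3 scalings. YSR3, a sphingosine phosphate phosphatase, had 1358, 1425 and 1279.8 in SJ and 539, 513 and 597 in FSJ (2.47-fold lower, log2 SE 0.15, limma adjusted p = 0.000463), and IPT1, which completes the most complex sphingolipid, had 315, 449 and 391 in SJ and 179.6, 153 and 200.1 in FSJ (2.16-fold lower, log2 SE 0.17, limma adjusted p = 0.00281). LCB5, a sphingoid base kinase, fell from 203 ± 8.34 to 123 ± 4.61 (1.65-fold, limma adjusted p = 0.00956), and RSB1, a sphingoid base exporter, from 1245 ± 186 to 666 ± 145 (1.89-fold, limma adjusted p = 0.0188), while SUR2, the sphingoid hydroxylase, rose from 973 ± 55.7 to 1322 ± 157 (1.35-fold, limma adjusted p = 0.0271). YSR3, IPT1 and LCB5 were called under every alternative, and RSB1 and SUR2 were not without SJ replicate 2 or 3 or FSJ replicate 2 (adjusted p up to 0.0809 and 0.0962).

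Of 25 phospholipid genes OPI1, the repressor of INO1, was higher (1.45-fold, adjusted p = 0.0271) and ALE1, an acyltransferase that puts acyl chains into phospholipids, lower (1.38-fold, adjusted p = 0.0256). Of 22 genes of beta-oxidation CRC1, the mitochondrial carnitine carrier, was higher (2.31-fold, adjusted p = 0.0324). The carnitine acetyltransferase CAT2 (1.6-fold, 0.0424) and the thioesterase TES1 (1.33-fold, 0.037) were lower. PXA2, a fatty acyl importer of peroxisomes, read below the background in every FSJ culture (at least 1.48-fold lower, 0.0414). Of 15 triacylglycerol genes LDH1 (1.64-fold, 0.0185) and APP1 (1.4-fold, 0.0372) were lower. All 8 calls were lost without SJ replicate 2, and no beta-oxidation gene was called lower without any one M25 array. Over all alternatives the adjusted p ran up to 0.14 for CAT2 and, with median centring, 0.199 for TES1.

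Some respiratory genes fell. Among the respiratory chain and ATP synthase, with 40 measured genes, 6 were called lower and 1 higher, 3 and 0 on all scalings, and the median was -0.29 on the log2 scale. CYC1, the aerobic isoform of cytochrome c, had 824, 743 and 609 in SJ and 356, 335 and 223 in FSJ (2.41-fold lower, log2 SE 0.21, limma adjusted p = 0.00423). CYT1, cytochrome c1, had 262, 256 and 217 in SJ and 148, 115 and 101 in FSJ (2.04-fold lower, log2 SE 0.20, limma adjusted p = 0.00937), and QCR2, a core subunit of the same complex, had 475, 353 and 388 in SJ and 208, 163 and 195 in FSJ (2.14-fold lower, log2 SE 0.18, limma adjusted p = 0.00355). These 3 had no overlap and kept their calls under every alternative. CYC3, which attaches heme to cytochrome c, fell from 745 ± 106 to 441 ± 74.8 (1.69-fold, limma adjusted p = 0.0312), and HEM2, of heme synthesis, had 1134, 1229.8 and 990.4 in SJ and 672, 566 and 499 in FSJ (1.94-fold lower, log2 SE 0.13, limma adjusted p = 0.00125). CYC3 and HEM2 belong to other lists. The other respiratory genes called lower were QCR8, COX8 and COX13, the last 2 named after their values were seen. COX9 was the one higher gene (1.38-fold, adjusted p = 0.0499), lost without any one SJ array, as was CYC3 (adjusted p up to 0.143 and 0.117).

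Lists of central carbon metabolism held 1 or 2 called genes each, where 3.0% of all genes were called higher and 6.55% lower. Of 24 glycolytic and ethanol genes PDC6 was the one call. The glucose transporter gene HXT2 had 662, 354 and 354 in SJ and 131, 142 and 106 in FSJ (3.47-fold lower, log2 SE 0.37, limma adjusted p = 0.0126), and HXT4 fell from 451 ± 41.3 to 259.5 ± 16 (1.73-fold, limma adjusted p = 0.0324), 2 of 14 hexose transporters and sensors. HXT2 was highest in SJ replicate 1, and its call was lost without that array (adjusted p = 0.053). GPP2, a glycerol phosphatase, had 543, 522 and 478 in SJ and 273, 244 and 205 in FSJ (2.15-fold lower, log2 SE 0.16, limma adjusted p = 0.00204), and GUT1, the glycerol kinase, was lower (1.69-fold, adjusted p = 0.0301). MAE1, malic enzyme, rose 1.51-fold (adjusted p = 0.0205) and PYC1, pyruvate carboxylase, 1.34-fold (adjusted p = 0.0492), of 17 genes listed with the tricarboxylic acid cycle. Of 11 aroma genes ATF1, which makes acetate esters, was lower (1.69-fold, adjusted p = 0.0374), as was ADH6 (1.71-fold, 0.0472). The calls of HXT4, GUT1, MAE1, PYC1, ATF1 and ADH6 were lost without SJ replicate 2 (adjusted p up to 0.14 over all alternatives).

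Both copper importers of the plasma membrane fell in M25. Of 30 measured genes of iron and copper uptake 5 were called lower and 14 had a positive value, and the same count of 5 was lower on all 3 scalings. Of these CTR1, CTR3, CCC2 and TIS11 were called under every alternative. CTR1, the high-affinity copper importer, had 246, 215 and 291 in SJ and 101, 83.6 and 119 in FSJ (2.49-fold lower, log2 SE 0.19, limma adjusted p = 0.00151), and CTR3, the other copper importer, had 1568, 1386 and 1395 in SJ and 863, 884 and 861 in FSJ (1.66-fold lower, log2 SE 0.11, limma adjusted p = 0.0029). CCC2, which loads copper into the secretory pathway, fell from 76 ± 3.78 to 32.5 ± 3.43 (2.34-fold, limma adjusted p = 0.00568). TIS11, which speeds the decay of mRNAs when iron is low, had 366, 445 and 307 in SJ and 124, 129 and 162 in FSJ (2.68-fold lower, log2 SE 0.26, limma adjusted p = 0.00704). The fifth was FRE1, a metal reductase named after its values were seen (90.9 ± 16.9 in SJ and 48.4 ± 1.7 in FSJ, adjusted p = 0.00949). FIT2, a cell wall mannoprotein, passed the test upward (adjusted p = 0.0356) but lay under the background on SJ and FSJ arrays alike, which allows no fold. The median of the list was -0.05, against -0.11 over all genes.

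Over all genes 3.0% were called higher and 6.55% lower. Oxidative stress defence had 20.8% called lower and the proteasome 14.7%. Heat shock genes, with 3.7% each way, and stationary phase genes, with 7.41% lower, were near the shares over all genes. Of 24 genes of oxidative stress defence 5 were lower and none higher, 3 on all scalings. PRX1, the mitochondrial peroxiredoxin, had 481, 441 and 416 in SJ and 249.8, 266 and 297 in FSJ (1.65-fold lower, log2 SE 0.14, limma adjusted p = 0.00805). SOD2, mitochondrial superoxide dismutase, fell from 289 ± 35 to 136 ± 17.2 (2.12-fold, limma adjusted p = 0.0153), TSA2 from 554 ± 53.5 to 341 ± 20.4 (1.62-fold, limma adjusted p = 0.0127) and DOT5 from 479 ± 33 to 303 ± 38.2 (1.59-fold, limma adjusted p = 0.0215). The fifth was YAP1, the main regulator of this response, named after its values were seen (adjusted p = 0.0297). Without SJ replicate 1 or 2 the count was 2, and without FSJ replicate 1 or 3 it was 3. Of 27 heat shock genes HSP30 was higher and CPR6 lower (adjusted p = 0.0282 and 0.0136), and both calls were lost without SJ replicate 2 or 3. Of 27 stationary phase genes MSN2, a general stress activator, fell from 798 ± 55.6 to 494 ± 44.1 (1.62-fold, limma adjusted p = 0.0026), beside SIP18, and HSP12 had 218, 251 and 219 in SJ and 148, 153 and 179.8 in FSJ (adjusted p = 0.628). The 34 proteasome genes all had negative values as deposited, where the median over all genes was -0.11. Their median was -0.32 as deposited and -0.14 with median centring. Of the 34, 5 were called lower as deposited and 1 on all scalings, with 0 without SJ replicate 1 or 3. Without EC1118 in FSJ replicate 3 there were 8.

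Few other lists were called beyond single genes. GIT1, a glycerophosphoinositol permease of the phosphate regulon, rose from 44.1 ± 7.63 to 94.1 ± 8.06 (2.15-fold, limma adjusted p = 0.00103), and the phosphate transporter PHO84 and phosphatase PHO8 were higher (adjusted p = 0.0292 and 0.0226), 3 of 20, while PHO87 was lower (adjusted p = 0.0333). Of 13 zinc genes COT1 and IZH1 were lower (adjusted p = 0.0355 and 0.0312). TIP1 was the one call of 14 aerobic wall proteins and flocculins (1.3-fold higher, adjusted p = 0.0271). SCJ1 was lower among 16 genes of endoplasmic reticulum folding, and GPH1, glycogen phosphorylase, among 20 of trehalose and glycogen (adjusted p = 0.031 and 0.0355). GIT1 was called under every alternative. Each of the other 8 calls was lost without SJ replicate 2. Over all alternatives their adjusted p ran up to 0.424, for TIP1 with quantile normalization. No gene of 11 in meiosis or of 15 in mating was called.

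Whether the lipid effect differed between strains was tested as the M25 effect minus the EC1118 effect in the same fit. It differed for 10 genes, 4 more positive in M25 (0.0746%) and 6 more negative (0.112%). Median centring gave 35 more positive. In EC1118 113 genes were called between the media (2.11%), 42 higher (0.784%) and 71 lower (1.32%). Of the 161 genes higher in M25 13 were called higher in EC1118, and of the 351 lower genes 55 were called lower there, 13 of 42 and 55 of 71 of the EC1118 genes. The larger count in M25 does not show that the response was larger, since a call missed in one strain is not a difference between strains.

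SUL1 had the clearest difference, 3.19 ± 0.24 on the log2 scale (SE, adjusted p = 0.000173), with 19.5, 14.7 and 17.2 in SJ and 28.8, 21.4 and 20.9 in FSJ in EC1118, close to its background of 19.1 to 21.4. PRM7 differed by -2.59 ± 0.27 (adjusted p = 0.00216) and stood at 2208, 3047 and 2894 in SJ and 2467, 2566 and 2092 in FSJ in EC1118, several times above M25. These 2 differences were called under all 21 alternatives that allow the test. VBA2 differed by 1.51 ± 0.21 (adjusted p = 0.0145) and had 52.9, 51.7 and 55.5 in SJ and 64, 50.2 and 53.3 in FSJ in EC1118, where the media overlapped. Its call was lost under 5 alternatives, the replicate block and each without 1 array, M25 in SJ replicate 2 or 3 or EC1118 in SJ replicate 1 or 3 (adjusted p up to 0.0755). SUL1 and VBA2 are neighbours in the reference annotation, and neither was called in EC1118 (adjusted p = 0.231 and 0.896). PCA1, the other neighbour of SUL1, named after its values were seen, was called lower in M25 (-0.64 on the log2 scale). Of 4642 measured neighbour pairs 44 had both members called in M25, 5 of them both higher.

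The remaining differences were near the threshold. CDC20 differed by 1.46 ± 0.24 (adjusted p = 0.0441) and YCT1 by 1.67 ± 0.29 (0.0486), both more positive in M25. PEX19, a peroxisome import receptor, fell in M25 from 61.8 ± 12.2 to 22.1 ± 2.66 (2.77-fold, limma adjusted p = 0.00175) and differed by -1.84 ± 0.30 (0.0441). YVC1, a vacuolar cation channel, fell from 87.2 ± 18.4 to 31 ± 5.34 (2.81-fold, limma adjusted p = 0.00717) and differed by -2.36 ± 0.39, but its other probe sets were not called in M25, and averaging them gave -0.83 in place of -1.49 for the fall. MMT1, a mitochondrial metal transporter, had 1199, 1208 and 1169 in SJ and 602, 508 and 715 in FSJ (1.98-fold lower, log2 SE 0.16, limma adjusted p = 0.00307) and in EC1118 90.9 ± 8.21 in SJ and 115 ± 17.8 in FSJ. RIT1, a tRNA-modifying enzyme, fell from 59.5 ± 2.8 to 34.9 ± 1.2 (1.71-fold, limma adjusted p = 0.00439). YLF2 read 16.2, 22.3 and 23.1 in SJ and 3.4, 5.1 and 3.4 in FSJ, at the background, a fall of at least 1.07-fold, and raising signals to the background removed its call. Each of these 7 differences was lost, also without most single arrays, under 14 to 16 of the 21 alternatives.

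Next among the positive differences of genes with no overlap in M25, and not past the test, were STR3, with a difference of 1.31 ± 0.27 (adjusted p = 0.107), and SEO1, a permease-like gene, with 0.85 ± 0.17 (0.107). In EC1118 none of the 39 measured sulfur genes was called, which is near the shares over all genes there, 0.784% higher and 1.32% lower. The list medians were 0.28, 0.09 and 0.13 in EC1118, where the median over all genes was 0.079. In M25 they were 0.89, 0.36 and 0.37, where it was -0.11. SUL1 and YCT1 alone of the 39 differed by the test. All 10 PAU genes were called lower in both strains and none differed (adjusted p of the difference from 0.0851 for PAU19 to 0.892 for PAU15). For the sterol genes HMG1 and ERG8 the difference was 0.61 ± 0.28 and -0.08 ± 0.16 (adjusted p = 0.326 and 0.81).

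**Figure D5:**
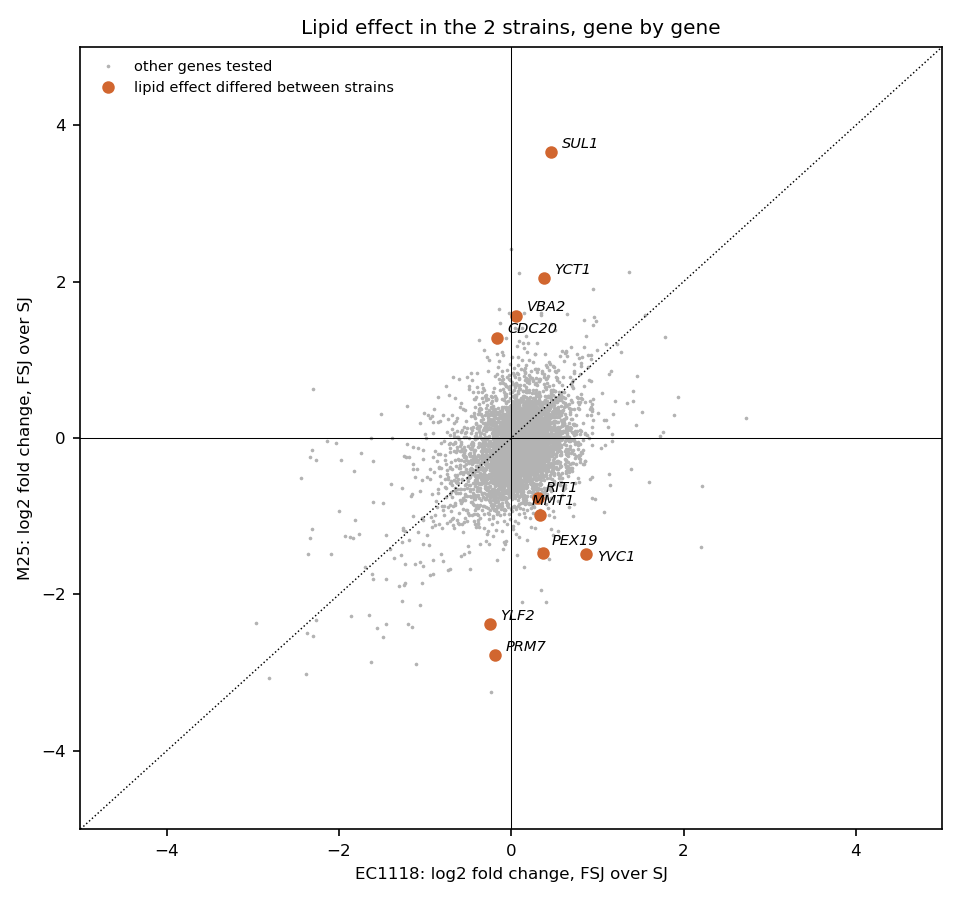
Fitted log2 fold change of FSJ over SJ in EC1118 (horizontal axis) and M25 (vertical axis) for 5360 genes, with equal effects on the dotted line. The 10 labelled genes are those whose lipid effect differed between the strains, from SUL1 at 3.65 in M25 and 0.46 in EC1118 to PRM7 at -2.77 and -0.19.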

How the data were processed

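The deposited table holds MAS5 signal intensities on a linear scale, per the submitters' processing notes and the labels, for 9335 probe sets on 12 arrays of 1 colour. The sources used here do not state the version or the scaling target. After leaving out 60 controls, probe sets above the array's 25th percentile on at least 3 of 12 arrays were kept (7349). Symbols came from the platform annotation: of 9275 yeast probe sets, 6504 had 1 symbol, 328 several and 2443 none. The brightest probe set stood for each of 5360 genes. Signals under 1 were set to 1, log2 was taken, and limma 3.58.1 in R 4.3.3 fitted 4 group means to all 12 arrays with an intensity trend. Benjamini-Hochberg adjustment ran over the 7349 probe sets. A signal under the 25th percentile on all arrays of a group gave only a bound ("at least"): the brighter group's mean over the higher of percentile and signal. No depth applies to arrays, and their number limits the precision. The p-values measure the spread between the biological replicates that the labels name.

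Named genes were the 15 largest called rises and 15 largest falls with no overlap, up to 4 called members per list and up to 2 in the rarer direction, all members of the mevalonate, sterol, PAU and sulfur lists, a short set of known reporter genes, and 6 genes per direction for the difference between strains. Others are marked in the text. Members and lists were chosen with earlier results of these data known. Alternatives changed the scaling, offset, filter, probe set rule, variance model, replicate block and arrays used. The fit was tested on simulated data with known changes of 1 or 2 on the log2 scale. In M25 it recovered 65% and 94% of them, and for the difference between strains 31% and 81%. Of the calls, 7.56% in M25 and 8.94% for the difference fell on unaltered probe sets. The simulated noise was normal and independent between probe sets and arrays. It held neither the shift in median signal between media nor the many low genes seen on single arrays. These shares therefore do not give the error rates of the real calls. Promoter motifs and sequences were not analysed here.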

Additional observations from a re-analysis of the deposited data

Results flagged for a closer look

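The 10 genes whose lipid effect differed between the strains by limma's test of the difference are listed here with the M25 effect minus the EC1118 effect on the log2 scale. More positive in M25 were SUL1 (3.19, adjusted p = 0.000173), YCT1 (1.67, adjusted p = 0.0486), VBA2 (1.51, adjusted p = 0.0145) and CDC20 (1.46, adjusted p = 0.0441). More negative in M25 were PRM7 (-2.59, adjusted p = 0.00216) and, each with an adjusted p = 0.0441, YVC1 (-2.36), YLF2 (-2.14), PEX19 (-1.84), MMT1 (-1.32) and RIT1 (-1.08). Over the 21 alternatives the highest adjusted p was 0.00179 for SUL1 and 0.012 for PRM7, and 0.0755 for VBA2. For the other 7 it ran from 0.137 for CDC20 to 0.93 for YLF2, whose difference turned to 0.045 with signals raised to the background.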

How the results depend on the processing

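Of 161 higher and 351 lower genes in M25, median centring left 465 and 191, and quantile normalization left 193 lower. Leaving out 1 array of either strain gave 71 to 217 higher and 152 to 439 lower. Of 4 positive and 6 negative differences between strains, median centring gave 35 positive, no filter 2 positive, log2(signal + 16) 3 negative and quantile normalization 1 negative. Without 1 array there were 1 to 6 positive and 1 to 5 negative. With the replicate block there were 1 positive and 1 negative, and 149 higher and 308 lower genes in M25. Deviations of M25 arrays with the same number correlated at -0.16 to 0.079, so the numbers were not taken to pair the samples. Of the 168 named genes that were called, 85 kept their call under all 22 alternatives. Over all named genes 4002 values kept direction and side of the threshold, 557 lost the call, 33 gained it and 26 changed sign, none of which was called in the alternative. With median centring the new values were 0.036 for ERG1, 0.050 for ERG10, 0.021 for ERG2, 0.011 for ERG26, 0.17 for ERG4, 0.14 for GSH2, 0.077 for HMG2 and 0.15 for INO1. With quantile normalization they were -0.17 for ACC1, -0.17 for DAN1, 0.13 for GSH2, -0.077 for SAH1 and -0.023 for SAM2. With signals raised to the background FIT2 gave -0.035. Leaving out 1 array gave ranges of -0.31 to 0.049 for ERG10 (positive without FSJ replicate 3 or SJ replicate 1, at 0.035) and -0.061 to 0.042 for ERG4 (positive without FSJ replicate 1 or SJ replicate 2, at 0.035). They were -0.12 to 0.058 for GSH2 (positive without FSJ replicate 2), -0.094 to 0.80 for HEM13 (negative without SJ replicate 2) and -0.23 to 0.16 for MET8 (negative without FSJ replicate 1 or, at -0.14, SJ replicate 2). SAH1 gave -0.026 without FSJ replicate 2. SAM2 ran from -0.45 without SJ replicate 2 to 0.40 without FSJ replicate 1, with -0.23 and -0.15 without FSJ replicates 2 and 3. The cause was not tested. Signals near the background limit every fold of a dim gene.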

Other observations

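The genes that stood low on single M25 arrays clustered by chromosome, as seen after the values were examined. In M25 in SJ replicate 2, 53 genes had less than 1/2 of the signal of both other replicates, where the others exceeded 100, and 15 of them less than 1/4. Of these 53, 19 lay on chromosome II, which holds 359 measured genes. ACH1, acetyl-CoA hydrolase, read 35.1 against 568 and 815, and AAC3, a mitochondrial ADP/ATP carrier of hypoxic cells, read 62.8 against 742 and 836. In M25 in FSJ replicate 2 there were 76 such genes, 28 of them on chromosome IV, which holds 695 measured genes. HPT1, of purine salvage, read 68.0 against 573 and 601, RUB1, a ubiquitin-like modifier, read 84.6 against 587 and 616, and CPR5, a prolyl isomerase, read 157.5 against 1023 and 1105. In EC1118 in FSJ replicate 2 there were 41 such genes, 17 of them among 79 measured on chromosome I, and in EC1118 in FSJ replicate 3 there were 94, 27 of them on chromosome II. None of the 53 or 76 genes was called in M25, which says little, since the low array by which they were picked widens their spread.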
